A study of Mus musculus with 11 samples.

Results

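The chambers of the heart build their contractile filaments from partly different gene products, and 10 mouse genes that mark this difference are described here in mitral leaflets, the flaps of the valve at the left atrioventricular junction. They were matched by symbol in both deposited gene tables and fall into 4 atrial genes (Myl7, Myl4, Sln and Myh6), 4 ventricular genes (Myl2, Myl3, Myh7 and Irx4) and 2 troponin I genes (Tnni1 and Tnni3). All 10 were listed in both tables, out of 28591 symbols in all, with 24062 in the table of the Ift88 experiment and 26667 in that of the Dzip1 experiment. The Ift88 experiment compared 3 libraries from Ift88 knockout leaflets, with a Cre recombinase under the Nfatc1 gene and floxed Ift88 (f/f), with 2 libraries from leaflets with the Cre but without the floxed allele (Ift88 +/+). The titles of these libraries are marked as re-analyzed, and those of the Dzip1 experiment are not. Ift88 is a protein of the transport system that builds cilia. Nfatc1 is active in endocardial and valve endothelial cells, so cells outside that lineage are not a target of the deletion. The Dzip1 experiment compared 3 libraries heterozygous for the S14R allele (Dzip1 S14R/+) with 3 libraries of Dzip1 +/+; the Dzip1 protein has a zinc finger and lies at the base of cilia, and the labels name no Cre there. How old the animals were is not given in the sources used here. Nothing in the labels says whether the libraries are separate animals, so all p-values measure the spread between these libraries, which may be technical.

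A sarcomere's thick filament holds myosin, whose heavy chain carries the motor and whose regulatory and essential light chains brace its lever arm. Troponin I sits on the thin filament and blocks contraction until calcium is released. In the adult mouse, atrial muscle uses the light chains Myl7 and Myl4 and the heavy chain Myh6, and ventricular muscle uses Myl2 and Myl3. The heavy chain of the ventricle changes around birth, with Myh7 used before and Myh6 after. How the light chains divide between the chambers before birth was not examined here. Troponin I changes with development in both chambers, with Tnni1 as the fetal and Tnni3 as the adult heart form. The other genes of the set are no filament proteins: Sln encodes sarcolipin, an inhibitor of the calcium pump that is found mainly in mouse atria, and Irx4 encodes a homeobox transcription factor of the ventricle.

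Total counts ranged from 23.4 to 40.3 M counts (1 M being 1000000) in the knockout and from 31.4 to 53.8 M in its wild type, and from 86.0 to 93.5 M in S14R/+ and from 75.1 to 79.1 M in its wild type. Ift88 itself stood at 3.03, 4.12 and 0.428 CPM (counts of the gene per 1000000 counts of its library) in the knockout libraries, against 6.31 and 21.2 CPM in the wild-type libraries. The groups did not overlap, the knockout being lower, with a difference of -2.48 ± 1.13 (SE) on the log2 scale, which edgeR did not call (adjusted p = 0.802). Dzip1 differed by -0.06 ± 0.0587 (SE) on the log2 scale between S14R/+ and its wild type (adjusted p = 0.891 in edgeR), and a count of the whole gene does not tell the alleles apart. None of the 12 valve interstitial or 10 valve endothelial genes was at 0 in any library, but their levels differed. In wild-type replicate 1 of the Ift88 experiment the endothelial genes summed to 255 CPM, against 1820 to 2960 CPM in the other libraries of that experiment. Heart muscle transcripts were abundant, with 1 exception. The 10 genes took 2.13%, 1.502% and 2.01% of all counts in the Ift88 knockout libraries, against 3.02% in the first and 0.0112% in the second wild-type library. In wild-type replicate 2 the 23 other sarcomere genes summed to 267.5 CPM, against 28198 to 47135 CPM in the other libraries of that experiment, and 5 of them were at 0. This library stands apart in its total of muscle transcripts, and the fold changes of the 10 genes and the medians of the gene lists in the Ift88 experiment are therefore given also without it. In these bulk samples, fewer muscle cells and less RNA per muscle cell cannot be told apart.

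The bases before the transcription start are shown for 4 of the genes. These are the regulatory light chain of the atrium (Myl7), the essential light chain of the ventricle (Myl3), which is not its counterpart, and both heavy chains, which are neighbours on chromosome 14. The sequences are the 250 bases before the annotated start, from RefSeq on GRCm38.p6, where 9 of the 10 genes had an entry. Myh7 has 2 entries there, and the upstream one is shown; the window of the other, which lies further downstream at chr14:54994550-54994799, held 0 matches. Each is written 5′ to 3′ on the strand of its gene. Capitals mark matches, on either strand, to TATAAA (a core promoter box), GATAA (bound by factors of the Gata family), CATTCC (bound by Tead factors), CAGCTG (an E-box), the MEF2 site or the CArG box, which serum response factor binds.
Myl7, chr11:5898783-5899032, minus strand: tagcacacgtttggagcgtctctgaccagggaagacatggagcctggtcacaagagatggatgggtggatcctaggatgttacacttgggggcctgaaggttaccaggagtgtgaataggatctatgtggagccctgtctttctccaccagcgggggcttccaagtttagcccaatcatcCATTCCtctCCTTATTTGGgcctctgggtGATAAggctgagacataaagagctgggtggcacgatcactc
Myl3, chr9:110763428-110763677, plus strand: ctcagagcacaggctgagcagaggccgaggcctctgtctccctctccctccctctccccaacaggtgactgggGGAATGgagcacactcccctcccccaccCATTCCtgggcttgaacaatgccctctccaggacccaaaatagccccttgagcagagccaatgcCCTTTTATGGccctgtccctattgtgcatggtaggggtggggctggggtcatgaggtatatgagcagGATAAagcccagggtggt
Myh6, chr14:54966608-54966857, minus strand: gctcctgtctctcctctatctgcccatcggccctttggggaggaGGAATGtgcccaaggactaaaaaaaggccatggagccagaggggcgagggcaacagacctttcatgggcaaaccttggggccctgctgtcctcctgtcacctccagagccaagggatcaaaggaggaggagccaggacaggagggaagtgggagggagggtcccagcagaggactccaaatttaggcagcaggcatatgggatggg
Myh7, chr14:54994627-54994876, minus strand: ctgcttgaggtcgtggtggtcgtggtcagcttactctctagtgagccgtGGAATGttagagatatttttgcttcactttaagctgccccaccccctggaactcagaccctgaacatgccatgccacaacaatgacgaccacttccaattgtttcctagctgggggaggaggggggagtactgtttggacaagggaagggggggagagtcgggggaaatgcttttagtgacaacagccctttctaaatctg
The windows of Myl7 and Myl3 held the same 3 kinds of match although the genes belong to opposite chambers: a CArG box from 61 to 52 bases before the start in Myl7 and from 85 to 76 in Myl3, a GATAA match from 41 to 37 and from 18 to 14, and CATTCC matches from 70 to 65 in Myl7 and from 177 to 172 and 149 to 144 in Myl3. Myh6 and Myh7 each held 1 CATTCC match, from 206 to 201 and from 201 to 196 bases before the start. None of these matches overlapped another. Over 32851 RefSeq promoters of this length, 1.47% held a CArG box, 22.6% GATAA, 12.6% CATTCC, 13.0% CAGCTG, 12.4% TATAAA and 3.20% the MEF2 site. Windows of the genes not shown held other matches or none. Those of Myl2 held GATAA in the first entry and TATAAA and CAGCTG in the second. Both Myl2 windows (chr5:122092474-122092723 and chr5:122092939-122093188) end upstream of the GENCODE M21 gene, which starts at 122100951. They are therefore not the bases next to that start. The windows of Tnni1 held CAGCTG in each entry, and those of Myl4, Irx4 and Tnni3 held 0 matches. A match describes letters only and was not tested for binding.

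The first comparison addressed whether chamber genes differ in the leaflet when Ift88 is deleted. No chamber gene passed the threshold: edgeR called 0 of the 10 and 0% of all 14244 genes tested, with 0 of the 10 and 6.01% of all genes at an unadjusted p under 0.05. DESeq2 also called 0 of the 10, against 2.33% of 16164 genes (2.21% higher and 0.111% lower), and 2 of the 10 had an unadjusted p under 0.05 in it (Myl7 and Sln), against 10.2% of all genes. The spread between libraries of 1 genotype was the main feature of these genes. Knockout replicates 2 and 3 carried mostly atrial forms, knockout replicate 1 and wild-type replicate 1 mostly ventricular forms, and wild-type replicate 2 little of either. The plot of levels by gene shows this for all 10.

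**Figure D1:**
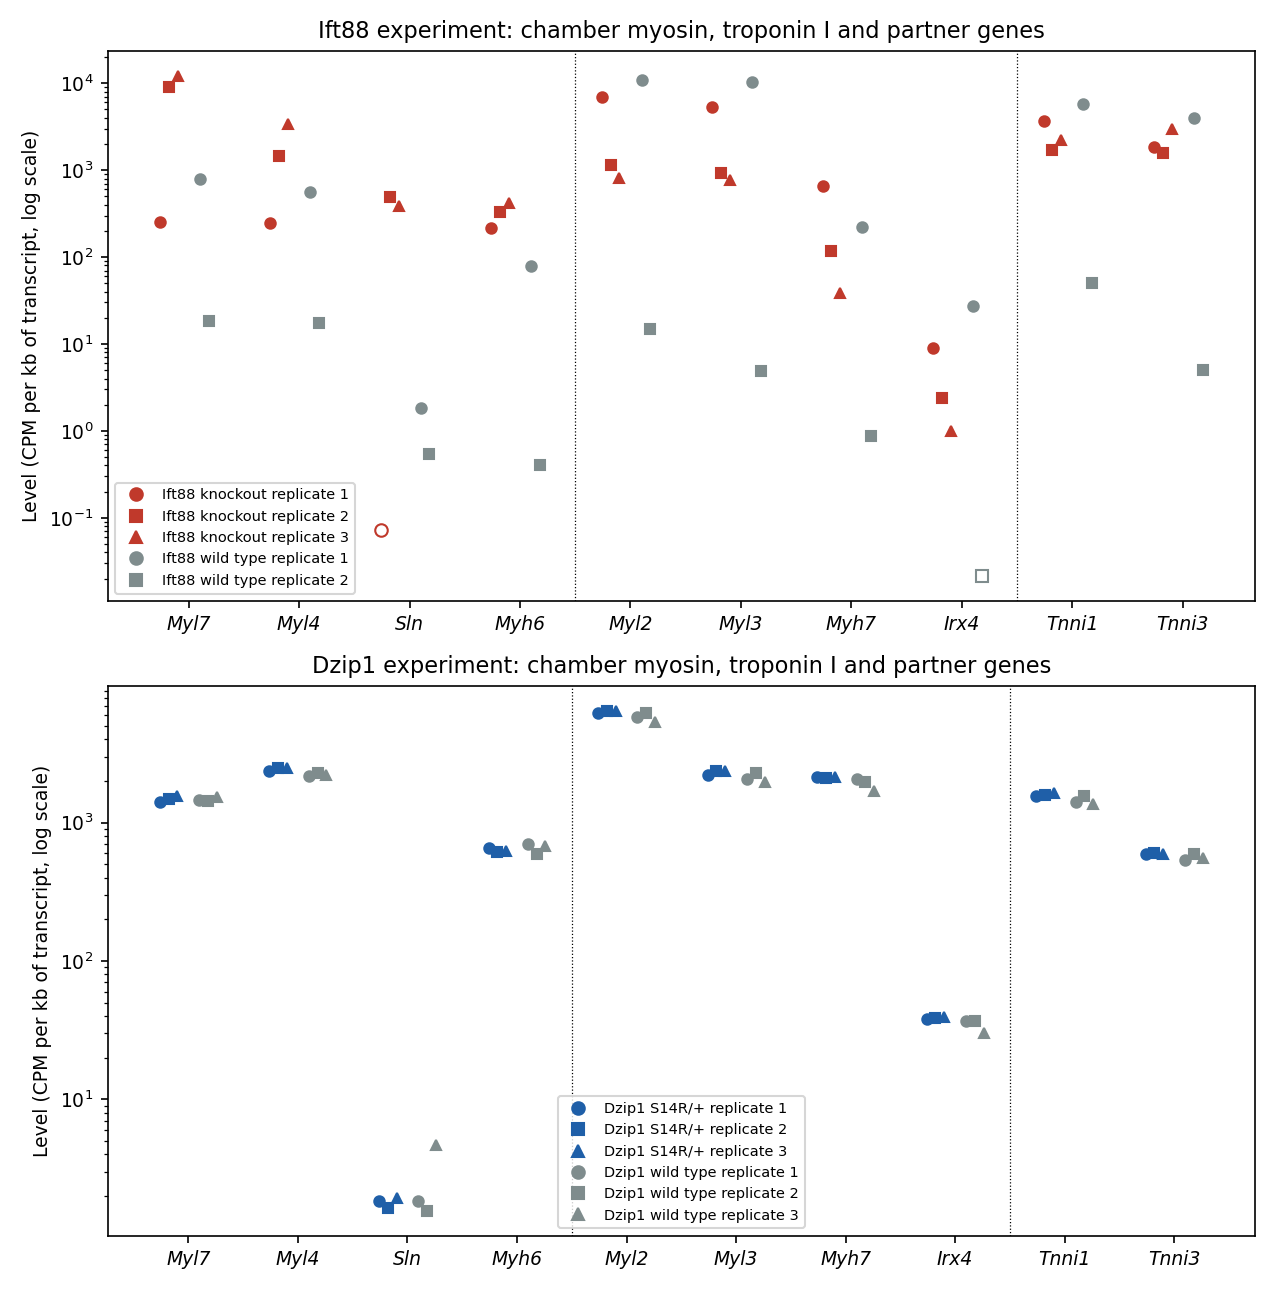
Level of each gene in every library, in CPM per kilobase of transcript on a log axis, with the Ift88 experiment above and the Dzip1 experiment below; dotted lines part the atrial, ventricular and troponin I genes, and open symbols are libraries with a count of 0, drawn at the level that 3 counts would give. Wild-type replicate 2 of the Ift88 experiment is the lowest or, for Sln, the second lowest library for each gene, while the 6 libraries of the Dzip1 experiment lie close together for all genes but Sln.

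Among the atrial genes, Myl7, the regulatory light chain on chromosome 11 (GRCm38, 5896637 to 5898782, reverse strand), stood at 150.2, 5349 and 7183 CPM in knockout replicates 1 to 3, against 465 and 10.9 CPM in wild-type replicates 1 and 2. Knockout replicate 1 lay between the wild-type libraries and the other knockout libraries far above both. Its fold change was 3.83 ± 2.08 (SE) on the log2 scale (adjusted p = 0.825 in edgeR and 0.255 in DESeq2). Myl4, the essential light chain on the same chromosome (104550663 to 104595753, forward strand), stood at 219, 1305 and 3081 CPM in the knockout, against 503 and 15.7 CPM in the wild type. The order of the libraries was that of Myl7, with a fold change of 2.25 ± 1.63 (adjusted p = 0.880 in edgeR).

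Sln (chromosome 9, 53850164 to 53854560, forward strand) varied most. It had 0, 25998 and 11954 counts in the knockout libraries, which is 0, 646 and 512 CPM, against 75 and 38 counts, or 2.39 and 0.706 CPM, in the wild type. A count of 0 allows up to 0.0957 CPM in knockout replicate 1, so 1 knockout library was below both wild-type libraries and the others were far above them. The fitted log2 fold change of 7.73 ± 3.24 (adjusted p = 0.802 in edgeR) depends on how the 0 is treated. Myh6, the alpha heavy chain (chromosome 14, 54941921 to 54966927, reverse strand), was the most even of the atrial genes within the knockout, at 1323, 2001 and 2574 CPM, against 488 and 2.45 CPM in the wild type. It was the 1 gene of the 10 in which the groups did not overlap, with the knockout higher, as in 15.4% of all genes tested. In 0 of the 10 was the knockout lower without overlap, against 7.55% of all genes. Its fold change was 2.69 ± 1.77 (adjusted p = 0.868 in edgeR).

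The ventricular genes ran the other way among the muscle-rich libraries. Myl2, the regulatory light chain on chromosome 5 (122100951 to 122113472, forward strand), stood at 4546, 762 and 536 CPM in the knockout, against 7269.8 and 9.85 CPM in the wild type. Myl3, the essential light chain on chromosome 9 (110741861 to 110769798, forward strand), followed the same order, at 5040.2, 862 and 716 CPM in the knockout and 9708 and 4.55 CPM in the wild type. For both, wild-type replicate 1 and knockout replicate 1 were the highest libraries and all knockout libraries lay between the wild-type libraries. The fold changes were -1.18 ± 1.98 for Myl2 and -1.42 ± 2.10 for Myl3 (adjusted p = 0.957 and 0.953 in edgeR).

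Myh7, the beta heavy chain next to Myh6 (chromosome 14, 54970684 to 54994626, reverse strand), was highest in knockout replicate 1. It stood at 4049, 726 and 242 CPM in the knockout, against 1374 and 5.41 CPM in the wild type, with a fold change of 1.00 ± 1.98 (adjusted p = 0.969 in edgeR). Irx4 (chromosome 13, 73260479 to 73269608, forward strand) had 731, 252 and 60 counts in the knockout libraries, or 23.3, 6.26 and 2.57 CPM. In the wild type it had 2202 counts (70.1 CPM) in replicate 1 and 0 in replicate 2, which allows up to 0.0558 CPM. The knockout libraries again lay between the wild-type libraries, and the fitted fold change was -1.995 ± 2.19 (adjusted p = 0.927 in edgeR).

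The troponin I genes varied less between the knockout libraries than the myosin genes other than Myh6. Tnni1 (chromosome 1, 135779434 to 135810989, forward strand), the fetal form, stood at 4229, 1942 and 2523 CPM in the knockout, against 6693 and 58.2 CPM in the wild type. Tnni3 (chromosome 7, 4518305 to 4524229, reverse strand), the adult form, stood at 1699.9, 1421 and 2687 CPM in the knockout, against 3584 and 4.61 CPM in the wild type. The knockout libraries differed by at most 2.18-fold for Tnni1 and 1.89-fold for Tnni3. For Myh6 they differed by 1.94-fold, and for the other myosin genes by 7.04-fold (Myl3) to 47.8-fold (Myl7). Fold changes were -0.52 ± 1.496 and -0.20 ± 1.80 (adjusted p = 0.982 and 0.993 in edgeR).

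As a set, the 4 atrial genes had positive fold changes with a median of 3.26, and the ventricular genes a median of -1.30 with 3 negative, beside a median of -0.01 over all genes tested. Without wild-type replicate 2, edgeR still called 0 of the 10, and the estimates became 2.86 for Myl7, 1.29 for Myl4, 7.01 for Sln, 1.70 for Myh6, -2.18 for Myl2, -2.42 for Myl3, 0.0030 for Myh7, -2.99 for Irx4, -1.51 for Tnni1 and -1.20 for Tnni3. The median over all genes in it was 0.25. That fit rests on a single wild-type library, assumed to vary like the knockout libraries. Without wild-type replicate 1 all 10 estimates were positive, from 5.67 to 11.69, and edgeR called 3 of them (Myh6, Tnni1 and Tnni3), against 1.22% of all genes tested in that fit, so the direction of the ventricular and troponin genes depends on which wild-type library is kept. The titles carry the prefix IR28N in wild-type replicate 1 and knockout replicates 1 and 2, and IRN in the others, with no statement of what it marks. Within IR28N alone, 2 libraries against 1, the estimates were 2.23 for Myl7, 0.28 for Myl4, 6.74 for Sln, 1.46 for Myh6, -1.73 for Myl2, -1.996 for Myl3, 0.52 for Myh7, -2.53 for Irx4, -1.41 for Tnni1 and -1.497 for Tnni3.

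**Figure D2:**
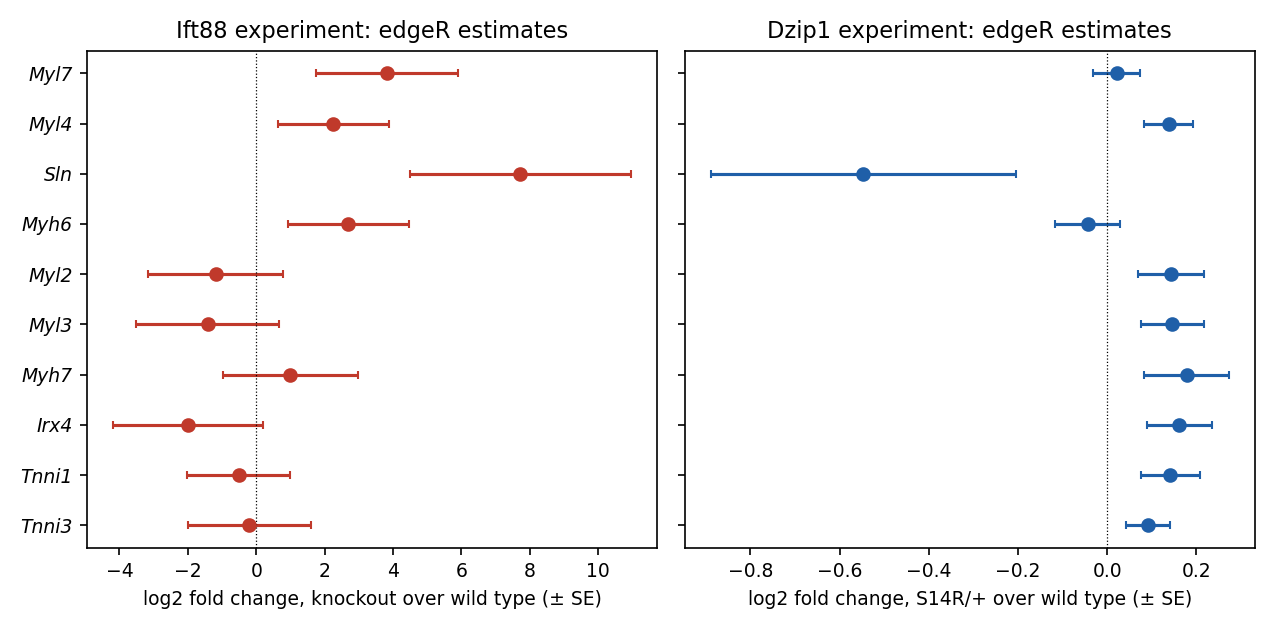
edgeR log2 fold change of each gene with its standard error, knockout over wild type in the Ift88 experiment (left) and S14R/+ over wild type in the Dzip1 experiment (right); the horizontal scales differ. The Ift88 estimates span -1.995 to 7.73 with standard errors of 1.496 to 3.24, and 9 of the 10 Dzip1 estimates lie between -0.04 and 0.18.

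The balance of the chambers was taken in each library as the mean log2(CPM + 0.5) of the atrial genes minus that of the ventricular genes. It was -4.16, 2.86 and 4.16 in the knockout libraries, against -3.58 and 0.52 in the wild-type libraries. The knockout thus held both the most ventricular and the most atrial library of the study. The knockout mean was 0.96 ± 4.47 (SD, n = 3), against -1.53 ± 2.90 (SD, n = 2) for the wild type, and the difference of 2.49 was smaller than the pooled SD between libraries of 4.02. Each library moved it by over 1.5 times when left out: the difference was 5.04 without knockout replicate 1, 1.53 without knockout replicate 2, 0.88 without knockout replicate 3, 0.43 with wild-type replicate 1 left out and 4.54 with replicate 2 left out.

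**Figure D3:**
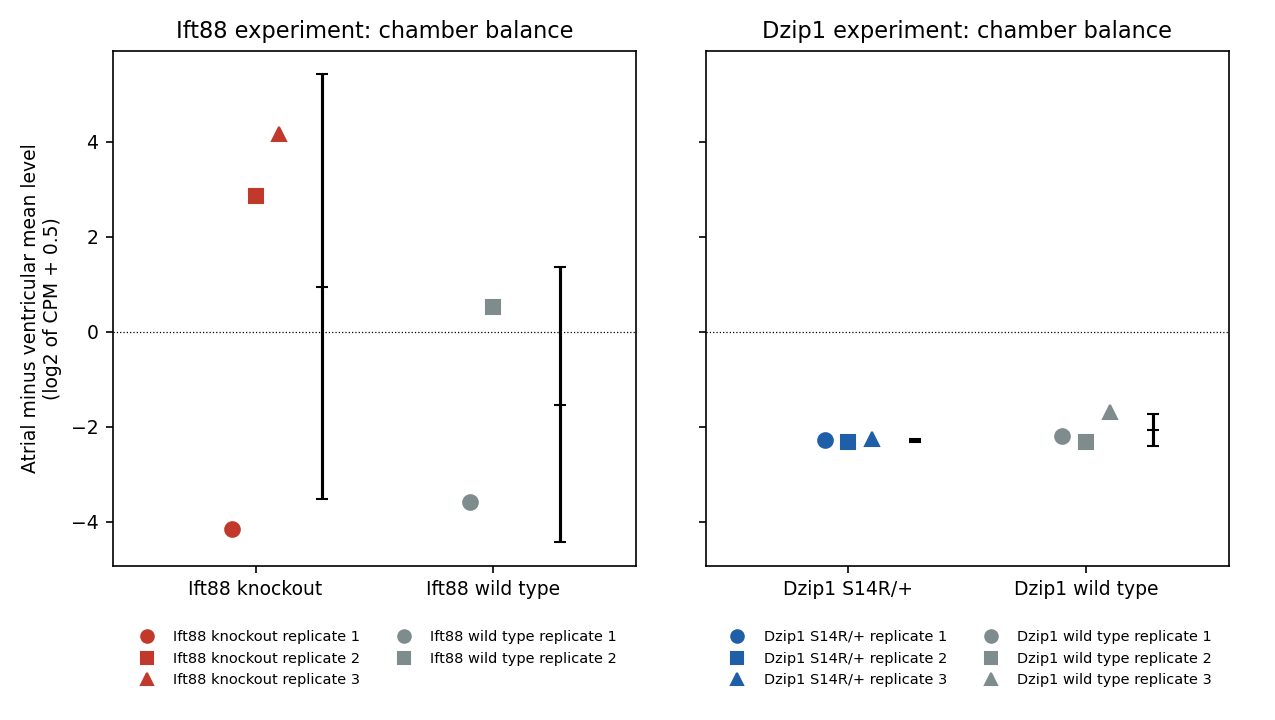
Atrial minus ventricular mean level (log2 of CPM + 0.5) in each library, with the mean and SD of each group as bars. The Ift88 knockout libraries spread from -4.16 to 4.16, while the S14R/+ libraries lie between -2.33 and -2.26.

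Pairs of chamber forms with the same place in the filament were then compared within each library, per kilobase of transcript, so that the total muscle content of a library cancels. Myl7 made up 3.58%, 88.7% and 93.8% of Myl7 plus Myl2 in knockout replicates 1 to 3, against 6.70% and 55.3% in the wild-type replicates. Myl4 made up 4.33%, 61.2% and 81.7% of Myl4 plus Myl3 in the knockout, against 5.12% and 78.3% in the wild type. Knockout replicate 1 and wild-type replicate 1 were thus ventricular in both light chains, and the 3 other libraries mostly atrial. Myh6 made up 25.0%, 73.8% and 91.5% of Myh6 plus Myh7 in the knockout, against 26.6% and 31.6% in the wild type. Here wild-type replicate 2 stood with the libraries dominated by Myh7, unlike in its light chains. The widest 95% Clopper-Pearson interval, for the heavy chains of wild-type replicate 2 with 132 and 291 counts, spanned 27.2% to 36.3%, and such intervals cover counting error only. Of the 50-base windows of the Myh6 transcript 22.6% are identical in Myh7, with a run of up to 245 bases, so reads of the heavy chains may be partly misassigned. The other pairs share no window.

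Tnni1 made up 66.4%, 52.0% and 42.7% of both troponin I genes in the knockout, against 59.7% and 90.9% in the wild type. Tnni3 thus exceeded Tnni1 per kilobase in 1 library, knockout replicate 3, which was also the most atrial. In wild-type replicate 2 the share of Tnni1 rests on 3132 and 248 counts, with an interval of 89.8% to 92.0%.

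**Figure D4:**
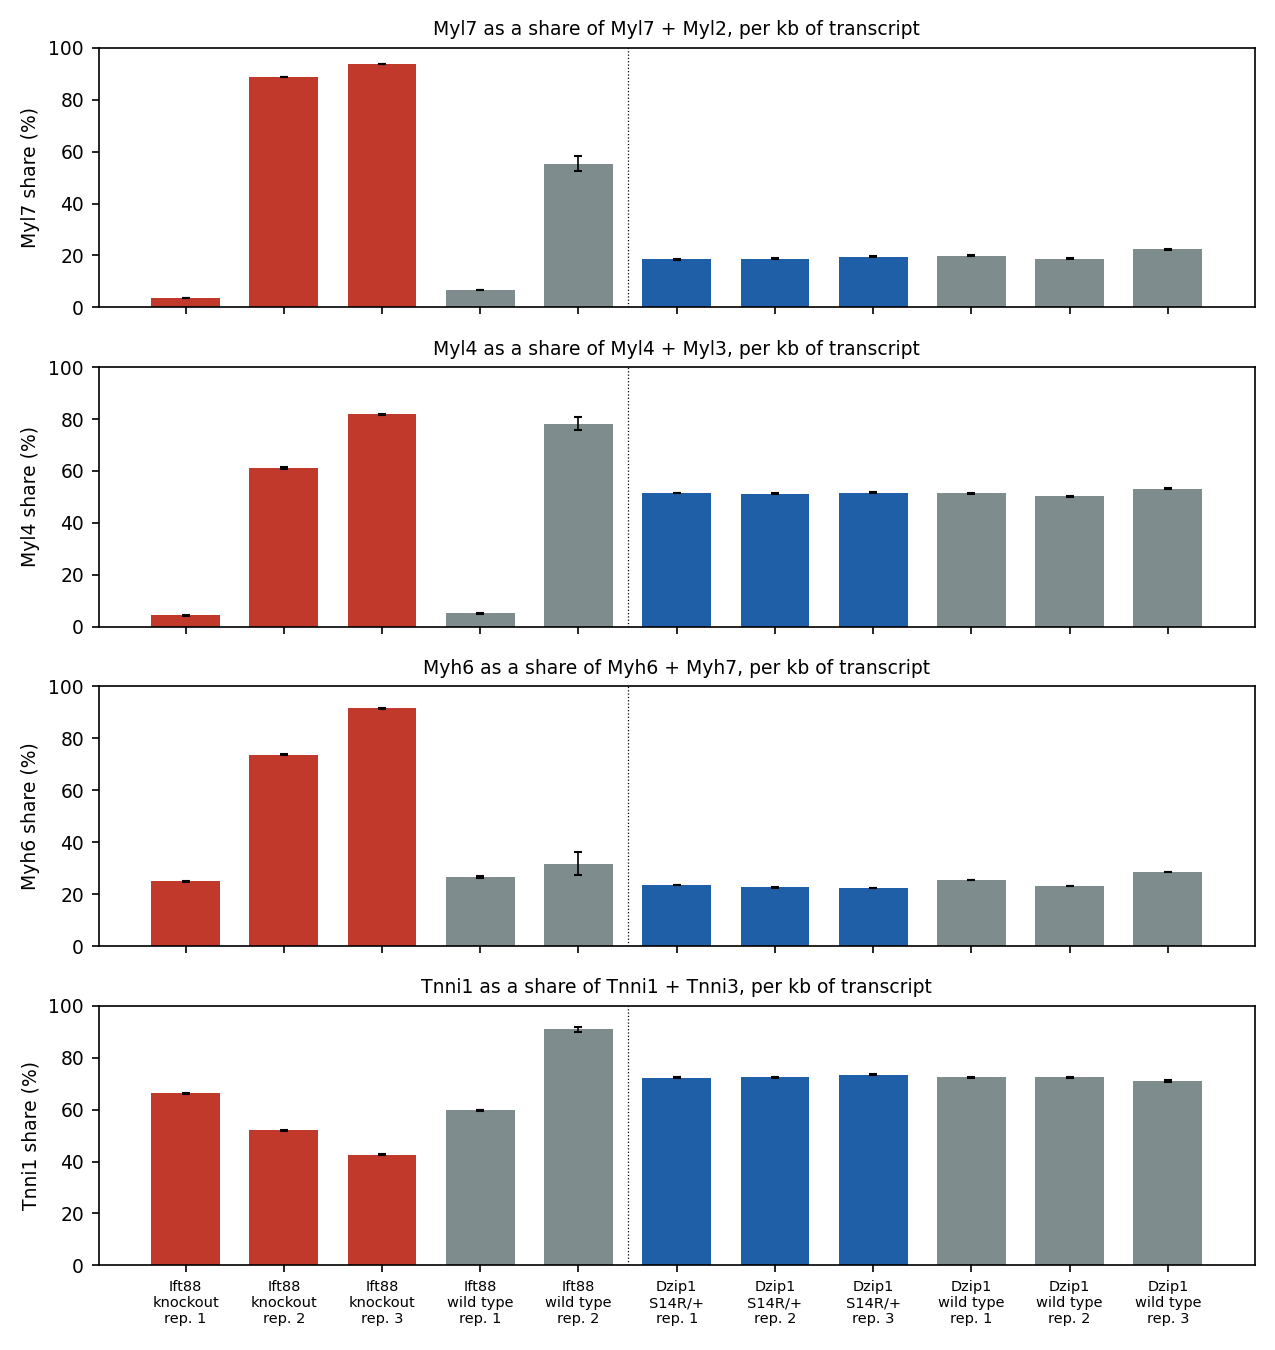
Share of the first-named gene in each pair of chamber or developmental forms, per kilobase of transcript, in all 11 libraries; bars start at 0 and whiskers are 95% Clopper-Pearson intervals, which cover counting error only. In the Ift88 experiment the Myl7 share runs from 3.58% to 93.8%, and in the Dzip1 experiment from 18.5% to 22.4%.

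The order of the genes by level per kilobase also changed from library to library. In knockout replicate 1 it led with Myl2 (6867), Myl3 (5379) and Tnni1 (3677 CPM per kb), and in wild-type replicate 1 with Myl2 (10982) and Myl3 (10361 CPM per kb). In knockout replicate 3 it led with Myl7 (12175), Myl4 (3424) and Tnni3 (2946 CPM per kb), and in knockout replicate 2 with Myl7 (9067) and Tnni1 (1689 CPM per kb). Irx4 was at or next to the bottom in each of the 5 libraries. Set against the 23 other sarcomere genes, the atrial genes summed to 5.17, 33.0 and 34.8 CPM per 100 sarcomere CPM in the knockout, against 3.09 and 11.1 in the wild type. The ventricular genes summed to 41.8, 8.36 and 3.90 in the knockout, against 39.1 and 7.41 in the wild type. Relative to the sarcomere, wild-type replicate 2 therefore fell within the range of the other libraries for both chamber sets. For troponin I the sums were 18.1, 11.9 and 13.6 in the knockout, all below the 21.8 and 23.5 of the wild type.

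**Figure D5:**
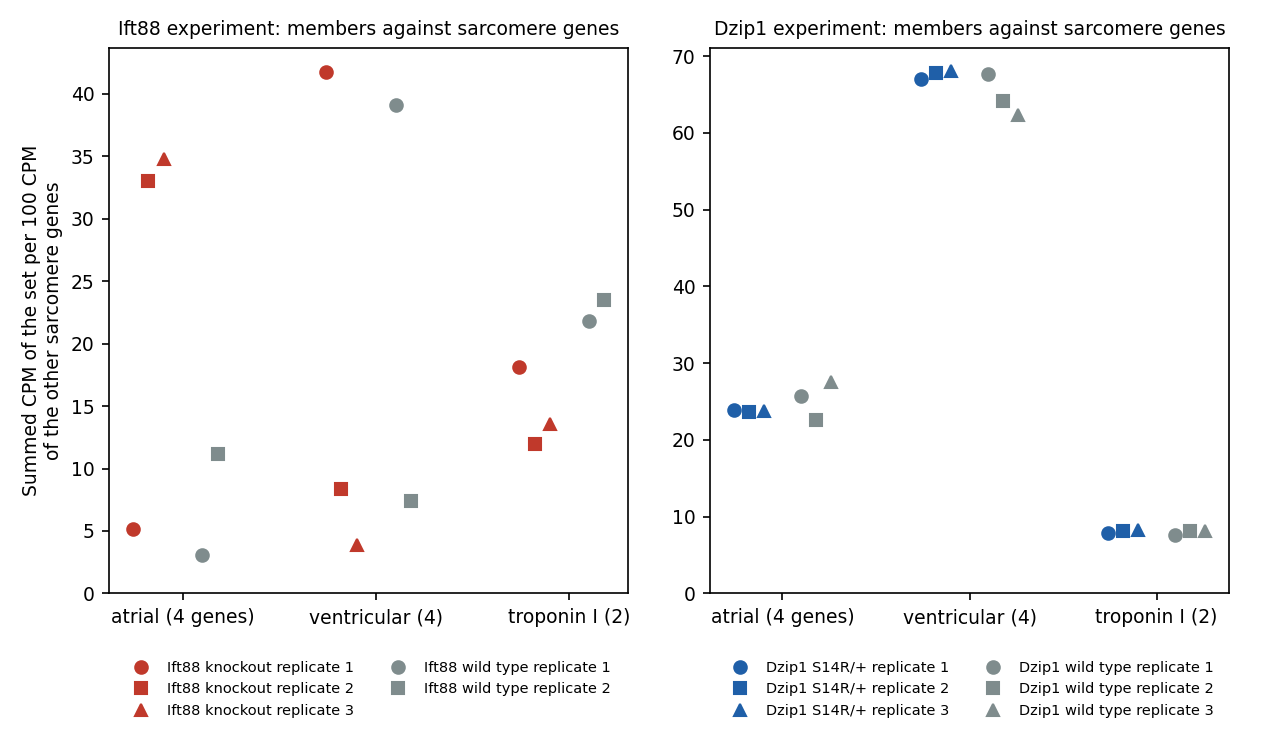
Summed CPM of each set per 100 CPM of the 23 other sarcomere genes in each library; the vertical scales differ between the experiments. In the Ift88 experiment the atrial sum runs from 3.09 to 34.8 and the ventricular sum from 3.90 to 41.8, and in the Dzip1 experiment the ventricular sums lie between 62.3 and 68.1.

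Further chamber genes were read from a list of 16 atrial-enriched genes that are not among the 10. Of the 15 tested, 13 had positive and 2 negative fold changes in the Ift88 knockout, with a median of 1.86, and 6 had no overlap between groups, with the knockout higher (15.4% of all genes). Without wild-type replicate 2 the median was 1.70, again with 13 positive. edgeR called 0 of them, 5 had an unadjusted p under 0.05 (6.01% of all genes), and DESeq2 called 3, all higher, against 2.21% of all genes. Tbx5, a T-box factor of atria and left ventricle, stood at 48.2, 179.8 and 157 CPM in the knockout, against 18.2 and 4.74 CPM in the wild type (3.23 ± 0.926 in edgeR, adjusted p = 0.802; adjusted p = 0.0184 in DESeq2), and its fold change was 2.50 without wild-type replicate 2. It was lowest within the knockout in replicate 1, the library with little Myl7, and still above both wild-type libraries there. Fgf12, a regulator of sodium channels that DESeq2 also called, is named after its values were seen. It stood at 0.0638, 41.6 and 41.1 CPM in the knockout, against 0.127 and 0.167 CPM in the wild type, so that knockout replicate 1, with 2 counts, lay below both wild-type libraries, with 4 and 9 counts.

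Not all listed genes of the atrium followed Myl7. Nppa, the atrial natriuretic peptide, stood at 348, 45.9 and 517 CPM in the knockout, against 1292 and 0.651 CPM in the wild type, and Bmp10 was at 0 in 4 of the 5 libraries. Of 11 tested genes of a ventricular-enriched list, 4 had positive and 7 negative fold changes, with a median of -0.32, and edgeR and DESeq2 called 0. Without wild-type replicate 2 there were 4 positive and 8 negative of 12 tested, with a median of -1.19. Pln, which encodes phospholamban, a calcium pump inhibitor of the ventricle, stood at 1859, 389 and 228 CPM in the knockout, against 3757 and 1.13 CPM in the wild type, in the order of Myl2. Hey2, a repressor found in the compact ventricle, stood at 68.5, 24.1 and 66.7 CPM in the knockout, below the 101 and 110.2 CPM of the wild type (-1.12 ± 0.519, adjusted p = 0.802 in edgeR; -1.23 without wild-type replicate 2). Its level in wild-type replicate 2 was as high as in replicate 1, unlike that of the sarcomere genes. Ankrd1, a stretch-responsive titin-binding protein, stood at 506, 1295 and 1073 CPM in the knockout, against 113 and 1.93 CPM in the wild type (3.75 ± 1.62, adjusted p = 0.802 in edgeR; 2.77 without wild-type replicate 2).

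Of 22 tested sarcomere genes outside the 10, 18 had positive fold changes, with a median of 0.87, and DESeq2 called 1, against 2.33% of all genes. These signs rest on wild-type replicate 2: without it 11 of 23 were positive, with a median of -0.02, and the summed level of wild-type replicate 1 (47135 CPM) was above that of all knockout libraries. The gene that DESeq2 called, Mybphl, a myosin-binding protein of atria and conduction system in mouse, stood at 0.0638, 160.2 and 180.5 CPM in the knockout, against 0 and 0.279 CPM in the wild type (adjusted p = 0.802 in edgeR and 0.0384 in DESeq2). Knockout replicates 2 and 3 stood far above the other libraries, which had 2 counts (knockout replicate 1), 0 and 15 counts (wild type). Valve cell markers differed between the libraries too. The 12 valve interstitial genes summed to 9647, 9373 and 7046 CPM in the knockout, against 1857 and 4737 CPM in the wild type, and 9 of the 12 were higher in the knockout without overlap (15.4% of all genes). The 10 valve endothelial genes summed to 1820, 2960 and 2082 CPM in the knockout, against 255 and 2632 CPM in the wild type, which overlap. Taken singly, 5 of the 10 were higher in the knockout without overlap (15.4% of all genes). The median log2 fold changes were 1.35 for the interstitial and 1.00 for the endothelial genes. Without wild-type replicate 2 they were 2.16 and 2.74, with wild-type replicate 1, low in these markers, as the only wild type. With all libraries, edgeR called 0 of both lists. DESeq2 called 3 of the 12 interstitial and 1 of the 10 endothelial genes, against 2.33% of all genes. The part of this in the muscle results was not tested. Scaling on genes outside the muscle lists moved the estimates of the 10 by less than their standard errors.

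The second comparison addressed the same genes in leaflets heterozygous for Dzip1 S14R, where the libraries were far more alike. Here the ventricular and troponin genes and Myl4 were on average 6.52% to 13.1% higher in S14R/+ than in the wild type, and none passed the threshold. edgeR called 0 of the 10 and 0% of 16160 genes tested, and DESeq2 called 0 of the 10 and 0% of 21010. At an unadjusted p under 0.05, edgeR had 2 of the 10 (Myl4 and Irx4) against 5.93% of all genes, and DESeq2 had 6, against 4.7%. In 3 of the 10 (Myl4, Myh7 and Irx4) every S14R/+ library lay above every wild-type library, an arrangement of 4.58% of all genes tested, and in 0 of the 10 below, against 5.86%.

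Myh7 had the largest estimate among the ventricular genes. It stood at 13372, 13184 and 13399 CPM in S14R/+, against 12827, 12203 and 10561 CPM in the wild type. The groups did not overlap, and wild-type replicate 3 was the lowest library. The means were 13319 ± 117 in S14R/+ and 11864 ± 1171 CPM in the wild type (SD, n = 3 each), with a fold change of 0.18 ± 0.0946 (SE; adjusted p = 0.828 in edgeR and 0.628 in DESeq2). Irx4 stood at 97.9, 100.4 and 101 CPM in S14R/+, against 95.3, 95.8 and 78.6 CPM in the wild type. The groups were again apart, by little except for wild-type replicate 3, and the fold change was 0.16 ± 0.0720 (adjusted p = 0.828 in edgeR and 0.900 in DESeq2).

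Myl2 stood at 4090.5, 4251 and 4277 CPM in S14R/+, against 3876, 4095 and 3541 CPM in the wild type, with a fold change of 0.14 ± 0.0742. Myl3 stood at 2086, 2205 and 2200.5 CPM in S14R/+, against 1943, 2135 and 1833 CPM in the wild type, with a fold change of 0.15 ± 0.0705. For both the groups overlapped, wild-type replicate 3 was the lowest, and the adjusted p was 0.828 in edgeR. Without wild-type replicate 3 the estimates of the ventricular genes were 0.09 for Myh7, 0.06 for Irx4, 0.08 for Myl2 and 0.09 for Myl3, all smaller than with it.

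Of the atrial genes, Myl4 stood at 2129, 2219.6 and 2248 CPM in S14R/+, against 1973, 2070.45 and 2002 CPM in the wild type. Its groups did not overlap and wild-type replicate 3 did not stand out, with a fold change of 0.14 ± 0.0547 (adjusted p = 0.828 in edgeR and 0.349 in DESeq2), and 0.12 without that library. Myl7 stood at 830.1, 872 and 925 CPM in S14R/+, against 857, 843 and 912 CPM in the wild type, with overlapping groups and a fold change of 0.02 ± 0.0526 (adjusted p = 0.956 in edgeR). Myh6 stood at 4037, 3779 and 3786 CPM in S14R/+, against 4297, 3622 and 4146 CPM in the wild type, with a fold change of -0.04 ± 0.0729 (adjusted p = 0.931 in edgeR). The atrial light chains thus gave unlike estimates, and the heavy chain none above its error.

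Sln, at 2.42, 2.16 and 2.56 CPM in S14R/+ and 2.40, 2.06 and 6.12 CPM in the wild type, was near its lowest levels in the Ift88 experiment in all libraries. Wild-type replicate 3 alone was high. The fold change of -0.55 ± 0.343 (adjusted p = 0.849 in edgeR) became 0.09 without it. The library with the most Sln thus also had the least Myh7, Irx4, Myl2 and Myl3 of the 6.

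Tnni1 stood at 1781, 1815 and 1883 CPM in S14R/+, against 1625, 1806 and 1574 CPM in the wild type (0.14 ± 0.0670). Tnni3 stood at 543, 548 and 538 CPM in S14R/+, against 490.0, 543 and 509 CPM in the wild type (0.09 ± 0.0488). Both overlapped between groups, with an adjusted p of 0.828 in edgeR.

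The chamber balance was -2.27, -2.33 and -2.26 in S14R/+, against -2.19, -2.33 and -1.69 in the wild type. All 6 libraries were on the ventricular side. The means were -2.29 ± 0.04 in S14R/+ and -2.07 ± 0.34 in the wild type (SD, n = 3 each), and the difference of -0.22 was within the pooled SD of 0.24. Without wild-type replicate 3 it was -0.03.

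Within the pairs, Myl7 made up 18.5%, 18.7% and 19.5% of its pair with Myl2 in S14R/+, against 19.9%, 18.8% and 22.4% in the wild type. Myl4 made up 51.5%, 51.2% and 51.5% of its pair with Myl3 in S14R/+, against 51.4%, 50.2% and 53.2% in the wild type. The light chain pairs of these leaflets thus differed, with Myl2 the larger part of the regulatory pair and the essential pair nearly even, alike in both genotypes. As ages are not given, the Myl4 share is not read as a share of atrial muscle. Myh6 made up 23.5%, 22.6% and 22.4% of its pair with Myh7 in S14R/+, against 25.5%, 23.2% and 28.6% in the wild type. Tnni1 made up 72.2%, 72.4% and 73.5% of troponin I in S14R/+, against 72.5%, 72.5% and 71.1% in the wild type. Myh7 and Tnni1, the forms used before birth, were thus the larger part of their pairs in all 6 libraries, and for all 4 pairs the groups overlapped. No interval was wider than 0.475 percentage points, so the spread between libraries, not the depth, limits these shares.

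By level per kilobase, Myl2 led in S14R/+ with 6354 ± 153, followed by Myl4 with 2443 ± 68.8, Myl3 with 2309 ± 71.7, Myh7 with 2138 ± 18.8, Tnni1 with 1588 ± 45.1 and Myl7 with 1484 ± 80.5 CPM per kb (SD, n = 3). Myh6 with 633 ± 24.1, Tnni3 with 596 ± 5.44, Irx4 with 38.6 ± 0.646 and Sln with 1.81 ± 0.151 CPM per kb came last. The wild-type means had the same order except that Myl7 (1476 ± 62.0) stood above Tnni1 (1451 ± 106), and ran from 5797 ± 422 CPM per kb for Myl2 to 2.68 ± 1.71 CPM per kb for Sln. Tnni1 and Myl7 overlapped between libraries in both genotypes, and in the wild type so did Myl4, Myl3 and Myh7, and Myh6 and Tnni3. Set against the 23 other sarcomere genes, the ventricular sums were 67.1, 67.8 and 68.1 CPM per 100 sarcomere CPM in S14R/+, against 67.7, 64.1 and 62.3 in the wild type, and the atrial sums 23.9, 23.6 and 23.7 in S14R/+, against 25.8, 22.6 and 27.5 in the wild type. Relative to the sarcomere, both chamber sets overlapped between the genotypes.

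The signs in the other heart muscle lists were mostly positive, except in the atrial list. Fold changes in S14R/+ were positive for 13 of 13 calcium handling and energy genes, with a median of 0.09, and for 18 of 22 sarcomere genes, with a median of 0.08. They were positive for 11 of 13 ventricular-enriched genes, with a median of 0.07, and for 5 of 15 atrial-enriched genes, with a median of -0.09, beside a median of -0.00033 over all genes tested. edgeR and DESeq2 called 0 genes in each of these lists. At an unadjusted p under 0.05, edgeR had 2, 2, 1 and 2 of their genes, against 5.93% of all genes. Of 14 tested skeletal muscle genes 5 were positive, with a median of -0.12. Bmp10, a growth factor of the atrial wall, stood at 76.7 ± 5.00 CPM in S14R/+ and 69.9 ± 0.723 CPM in the wild type (0.15 ± 0.0461, adjusted p = 0.822 in edgeR), and Stard10 at 14.6 ± 1.81 CPM in S14R/+ and 20.4 ± 5.46 CPM in the wild type (SD, n = 3 each; -0.46 ± 0.154, adjusted p = 0.822 in edgeR). Valve interstitial genes summed to 7018, 7337 and 6798 CPM in S14R/+, against 7248, 7958 and 8893 CPM in the wild type, so that wild-type replicate 3 was highest in these and lowest in the ventricular genes. The part of this in the muscle results was not tested.

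The genes whose log2 level ran closest to the mean of each chamber set were found over all genes with a mean count of at least 50. In the Ift88 experiment (5 libraries, 12778 genes) these were Ogfrl1, Cxxc5, Srebf2, Srf and Oxsr1 for the atrial set, with Pearson's r of 0.996 to 0.998, and Pigg, Cited1, Pln, Haus8 and Brip1 for the ventricular set, with r of 0.996 to 0.999. In the Dzip1 experiment (6 libraries, 14077 genes) they were Scnm1, Fchsd1, Meis3, Net1 and Zfp764 for the atrial set, with r of 0.981 to 0.989, and Homer2, Smyd2, Hk1, Pgap3 and Mtfp1 for the ventricular set, with r of 0.987 to 0.998. The libraries share their depth and muscle content across genes, and with so few of them the ranking describes these libraries only. No gene was among the closest in both experiments.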

How the data were processed

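RNA was made into libraries with a low-input SMART-Seq v4 kit, per the labels. The submitters' processing notes name the mouse build mm10/GRCm38 and the tools cutadapt 1.11, FastQC 0.11.5, DESeq, DESeq2 and HTSeq; aligner, annotation and strand are not stated in the sources used here. Without strand, reads of Myl2 and Myl3 cannot be told from those of Ccdc63 and Pth1r, which overlap them on the opposite strand, and the same holds for Myh6, Myh7 and Myl4, where opposite-strand genes such as Mhrt (in Myh7) also overlap. The deposited tables hold whole-number counts per gene and library, per the file headers and values. Beside them the authors deposited a signal (baseMean), log2 fold changes with standard errors, a score (stat) and p-values with adjusted p-values.

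Counts were scaled to CPM by the total of each library. Genes were tested per experiment with the quasi-likelihood test of edgeR 4.0.16 (R 4.3.3) after TMM scaling and filterByExpr, at a Benjamini-Hochberg adjusted p under 0.05, which kept all 10 genes in both experiments; estimates are mutant over wild type. The spread between libraries beyond counting error, which edgeR names the biological coefficient of variation, came to 87.7% (Ift88) and 7.85% (Dzip1). It may be technical, as the labels do not say whether the libraries are separate animals. The fit was also run on simulated counts with a common spread and, apart from planted changes, the same make-up in all libraries. Such counts hold no library like wild-type replicate 2 of the Ift88 experiment. They therefore do not measure what that comparison could miss. Levels per kilobase use 1 GENCODE M21 transcript a gene, from 0.59 kb for Myl7 to 6.23 kb for Myh7. Alternatives were DESeq2 1.42.0, the deposited table, other scalings and filters, other pseudocounts, each library left out, the title prefix and, chosen after seeing the data, scaling outside the muscle lists and the lists without wild-type replicate 2.

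The 10 genes and all lists were chosen with earlier results of these data known. The text names the 10, up to 3 genes a list by smallest p, defining markers, the targeted genes and the 5 genes closest to each chamber mean. A gene that this rule also names is not reported here. The deposited Dzip1 statistics correlated with a refit at r = -0.62 across genes, so their grouping could not be settled and they were not used. Libraries were checked for copies, and none was found.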

Additional observations from a re-analysis of the deposited data

How the results depend on the processing

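No paired analysis was possible because the labels give the groups no shared replicate numbers. Of 150 values of single chamber genes in the Ift88 experiment under the alternatives, 10 turned their sign, and of 130 in the Dzip1 experiment 3 did. The number of genes called in the Ift88 experiment was 0, but 376 with DESeq2, 184 in the authors' deposited table and 0 to 187 with a library left out, with 187 without wild-type replicate 1; the cause was not tested. Of the 10 chamber genes, 0 to 3 were called with a library left out, and Myh6 passed without wild-type replicate 1 (adjusted p = 0.00464 in edgeR; 0.178 when replicate 2 was left out instead). With a library left out, estimates in the Ift88 experiment ran from -2.84 to 7.69 for Myl2, -2.98 to 8.98 for Myl3, -0.87 to 8.34 for Myh7, -3.35 to 11.69 for Irx4, -1.51 to 5.67 for Tnni1, -1.20 to 8.73 for Tnni3 and 1.70 to 9.65 for Myh6, where the highest values are without wild-type replicate 1. With the title prefix as a covariate they were 0.18 for Myl2, 0.47 for Tnni1 and 0.52 for Tnni3, and with library size as the only scaling 0.11 for Tnni3. In the Dzip1 experiment 0 to 10 genes were called with a library left out, with 10 when wild-type replicate 2 was left out, 2 for wild-type replicate 1 and 1 for S14R/+ replicate 2. Estimates there ran from -0.0217 to 0.0596 for Myl7, -0.104 to 0.00750 for Myh6 and -0.812 to 0.0945 for Sln. The balance difference kept its sign under other pseudocounts, without Myh6 or Irx4, from summed CPM and with each library left out, from 0.43 to 5.04 in the Ift88 experiment and from -0.35 to -0.03 in the Dzip1 experiment. The scalings, filters, DESeq2 and the title prefix were not run for the balance. The deposited table was not run for Dzip1. Depth does not limit the abundant genes, but in wild-type replicate 2 of the Ift88 experiment the chamber genes rest on few counts.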

Other observations

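The 17 listed skeletal muscle genes, several of which the heart also expresses, summed to 447.5, 639.5 and 3092 CPM in the Ift88 knockout, against 849.0 and 10.5 CPM in its wild type, and to 759 to 820 CPM in S14R/+ against 692 to 833 CPM in its wild type. In the Ift88 experiment Myh1, Myh2 and Myh4, the fast heavy chains of skeletal muscle, were at 0 in all 5 libraries, and in the Dzip1 experiment no library had more than 0.278 CPM of Myh1. Other heavy chains of this list were not all at 0 in the Ift88 experiment. Myh8 had 0, 123 and 220 counts in the knockout and 0 in each wild-type library. Myh3 had 40 counts in knockout replicate 3 and 0 elsewhere. Acta1, a skeletal actin that the heart also expresses, stood at 63.1, 332 and 2348 CPM in the Ift88 knockout, against 177 and 1.75 CPM in the wild type. Tnnt1, the slow skeletal troponin T, stood at 16.6, 81.7 and 476 CPM in the knockout, against 18.3 and 2.53 CPM in the wild type (3.92 ± 1.69 on the log2 scale, adjusted p = 0.802 in edgeR; 3.07 without wild-type replicate 2). Both were highest in knockout replicate 3, which also had the most Myl7.

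Genes of the pacemaker and conduction system had a median log2 fold change of 2.23 over 9 tested genes in the Ift88 knockout, 8 of them positive (1.88 over 10 genes, 7 of them positive, without wild-type replicate 2), and of -0.10 over 11 genes in S14R/+, 9 of them negative; edgeR called 0 in both experiments. Shox2, a homeobox factor of the sinus node, had 24, 905 and 125 counts in the knockout libraries, against 0 and 6 in the wild type. It averaged 9.53 ± 11.4 CPM in the knockout (SD, n = 3) and 0.0558 ± 0.0789 CPM in the wild type (SD, n = 2). The fold change was 7.22 ± 2.30 (adjusted p = 0.802 in edgeR and 0.00263 in DESeq2). It rests on wild-type counts at or near 0, and was 11.1 without wild-type replicate 2. Cacna1g, a T-type calcium channel, had the smallest p of this list in S14R/+, with a fold change of -0.47 ± 0.128 (adjusted p = 0.822 in edgeR).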
